A study of Mus musculus with 6 samples.

Results

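The genes described here are 50 genes of ribosome biogenesis and the MYC network, chosen by symbol from the deposited table of 22375 rows. All 50 symbols were found in the table once each, and 49 of the 11593 genes tested were members of this set. The remaining gene, Mycn, was listed at 0 in all 6 libraries. RNA-seq was run on C2C12, a clonal line of mouse myoblasts, the proliferating precursors that fuse into muscle fibers. The CON group (3 libraries) was not stretched, and the 4H group (3 libraries) was stretched cyclically at 15% elongation for 4 h on elastic plates coated with poly-lysine. The cells were grown in serum-containing medium, and the labels name no genetic change or other treatment. The 4H libraries, titled 4H1, 4H3 and 4H4, are called 4H replicates 1, 2 and 3 after the replicate numbers of their labels. No source used here says whether the replicates came from separate cultures, so p values measure the spread between these libraries, which may be technical.

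Ribosomes are assembled in the nucleolus. RNA polymerase I transcribes a long precursor rRNA, small nucleolar ribonucleoproteins (snoRNPs) guide its chemical modification, and many assembly factors fold, cut and export the small and the large subunit. The transcription factor MYC, bound to its partner MAX, is a general activator of these genes in growing cells and recognises the DNA hexamer CACGTG, the canonical E-box. Myoblasts make many ribosomes while they proliferate and during muscle growth.

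The CACGTG hexamer was searched in the RefSeq promoters of build GRCm38.p6, which run from 250 bases before to 50 bases after an annotated start site. The word is its own reverse complement, so a search of 1 strand covers both. Promoters were present for 44 of the 50 genes, and 12 of these (27.3%) held the hexamer in at least 1 window. The share was 22.1% of 113 other genes of the same pathway, 11.9% of 8952 genes tested and 8.09% of all 27025 genes with a promoter. The matches are shown because MYC and MAX are themselves in the set, each with up to 12 bases on either side, 5′ to 3′ on the strand of the gene, with the hexamer in capitals. A match is a description of the sequence and not a measured binding site.
Max, chr12:76962234-76962263, minus strand: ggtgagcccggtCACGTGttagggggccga
Pes1, chr11:3963965-3963994, plus strand: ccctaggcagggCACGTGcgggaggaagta
Nop2, chr6:125131811-125131840, plus strand: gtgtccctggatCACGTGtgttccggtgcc
Imp4, chr1:34439696-34439725, plus strand: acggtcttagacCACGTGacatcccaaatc
Utp4, chr8:106893643-106893672, plus strand: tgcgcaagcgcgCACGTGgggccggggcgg
Wdr43, chr17:71616220-71616249, plus strand: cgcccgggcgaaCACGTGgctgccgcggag
Utp20, chr10:88826765-88826789, minus strand: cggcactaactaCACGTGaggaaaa
Ltv1, chr10:13193092-13193121, minus strand: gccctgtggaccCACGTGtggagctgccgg
Pno1, chr11:17211540-17211564, minus strand: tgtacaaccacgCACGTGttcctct
Tsr1, chr11:74898092-74898121, plus strand: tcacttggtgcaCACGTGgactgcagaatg
Mybbp1a, chr11:72441355-72441376, plus strand: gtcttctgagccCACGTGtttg
Rrn3, distal, chr16:13780472-13780501, plus strand: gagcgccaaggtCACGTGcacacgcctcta
Rrn3, proximal, chr16:13780639-13780668, plus strand: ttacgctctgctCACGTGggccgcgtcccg

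In Max the hexamer straddled the annotated start, with its first base 3 bases before it (position -3), and in Pes1 it began at base 3 after it. Rrn3 held 2 copies, at positions -215 and -48. Bop1, Fbl, Myc, Npm1, Rrp12 and Rrs1 had no entry in the promoter table. Among the 43 tested genes with an entry, the 12 with the hexamer had a median log2 fold change of -0.12, and 6 were lower in the 4H group. The 31 without it had a median of -0.18, and 23 were lower. By the test given below, 28.5% of all genes averaging 5 FPKM or more were lower. The difference between genes with and without the hexamer was not tested.

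Most of the ribosome biogenesis genes were lower after stretching, by small amounts that were larger than the spread between libraries. Of the 49 genes tested, 35 fell after stretch with an adjusted p no greater than 0.05 (limma on log2(FPKM + 0.5) with Benjamini-Hochberg adjustment over all 11593 genes), 0 were higher and 14 did not pass. At an unadjusted p under 0.05, 0 were higher as well. Over all genes tested, 24.1% were lower and 22.6% were higher by the same rule, 46.7% in all, and among the 8622 genes averaging 5 FPKM or more, a level that all 49 exceed, 28.5% were lower and 23.1% were higher, 51.6% in all. The share of the 49 genes called lower was 71.4%. The median log2 fold change (log2 change) of the 49 genes was -0.18, against -0.01 for all genes tested and -0.03 for those averaging 5 FPKM or more. FPKM scales the fragments of a gene to its transcript length and to the total of the library, so it is a relative unit. In bulk RNA fewer cells with a transcript and less of it per cell cannot be told apart.

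The differences were small in size. Of the 49 genes, 0 reached the study's thresholds for differential expression in limma (a log2 fold change beyond 1 in either direction and the same adjusted p). Of all genes tested 3.88% reached them and 1.28% did so downward, and of those averaging 5 FPKM or more 2.84% and 1.08%. The log2 fold changes ran from -0.62 for Gar1 to 0.08 for Nop16, with 47 below 0 and 2 above, where 52.1% of all genes tested and 54.8% of those averaging 5 FPKM or more were below 0. A log2 fold change of -0.3 or lower was reached by 14 called genes of the 49, against 13.5% of all genes tested and 14.1% of those averaging 5 FPKM or more. One of -0.5 or lower was reached by 4 of the 49, namely Gar1, Nop14, Wdr12 and Npm1, a share near the 5.62% and 5.20% of the same backgrounds.

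All 35 genes that were called lower had every 4H library below every CON library, as had 4 more that did not pass the test, while the groups overlapped in 10 genes. The groups were separated in this direction in 29.2% of all genes tested and in 33.3% of those averaging 5 FPKM or more. For each separated gene the two-sided exact permutation test of 3 against 3 libraries gave p = 0.1, the smallest value it allows. The fall was also seen library by library. The median of the 49 genes, relative to the CON mean of each gene on the log2 scale, was 0.02, -0.04 and 0.02 in CON replicates 1, 2 and 3 and -0.17, -0.17 and -0.20 in 4H replicates 1, 2 and 3. The corresponding medians of all genes tested lay between -0.02 and 0.002 in the 6 libraries. The summed FPKM of the 49 genes was 3302, 3200 and 3314 in the CON libraries and 2650, 2709 and 2644 in the 4H libraries, and Npm1 made up 20.4% of the CON sum.

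**Figure D1:**
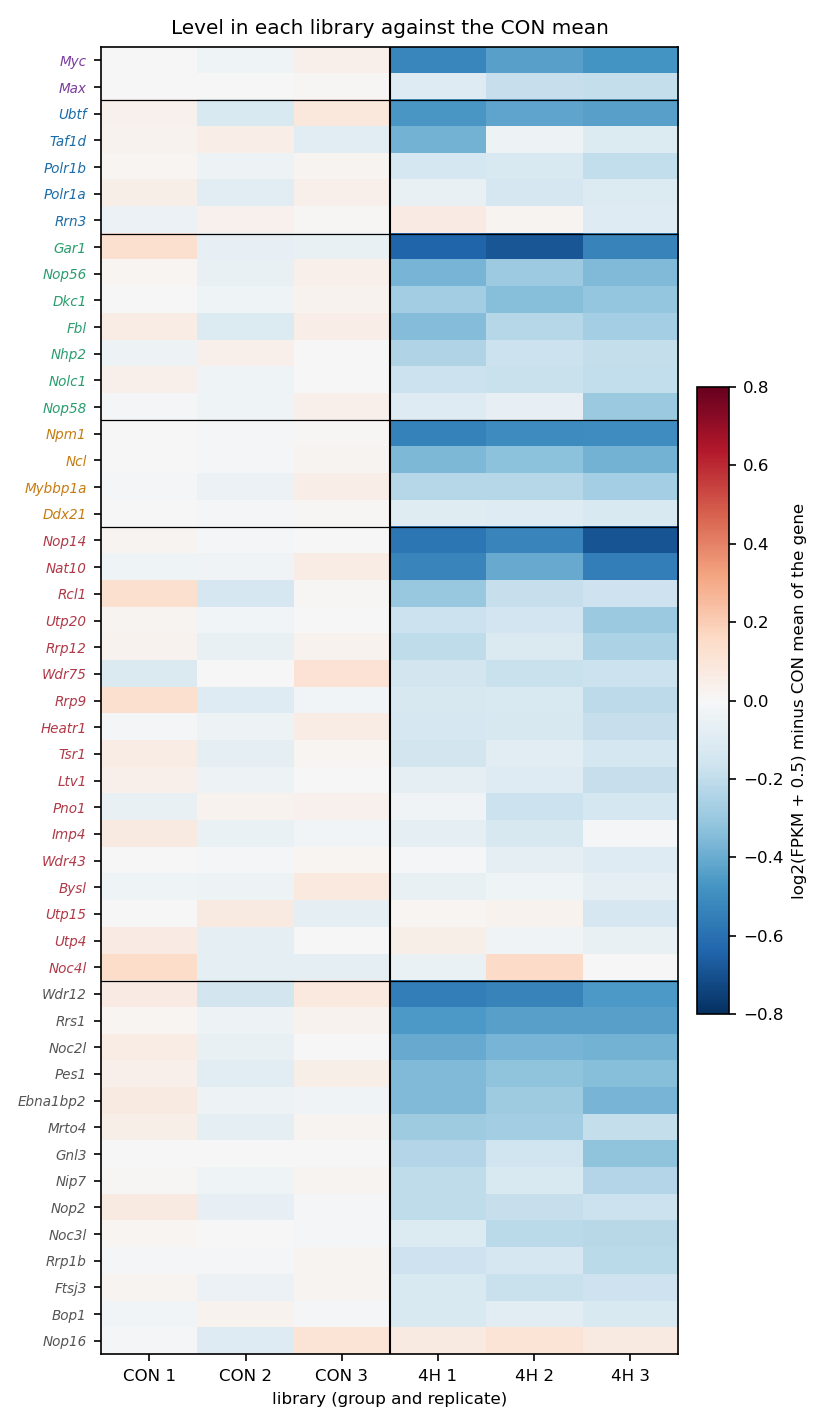
Level of each of the 49 tested genes in each library (columns, 3 CON and 3 4H), as log2(FPKM + 0.5) minus the CON mean of that gene, with blue for lower and red for higher values and gene names colored by step of ribosome synthesis. The 4H columns are blue in nearly all rows, with Gar1 and Nop14 the deepest, and Nop16, Noc4l and Rrn3 stand near the CON level or above it.

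**Figure D2:**
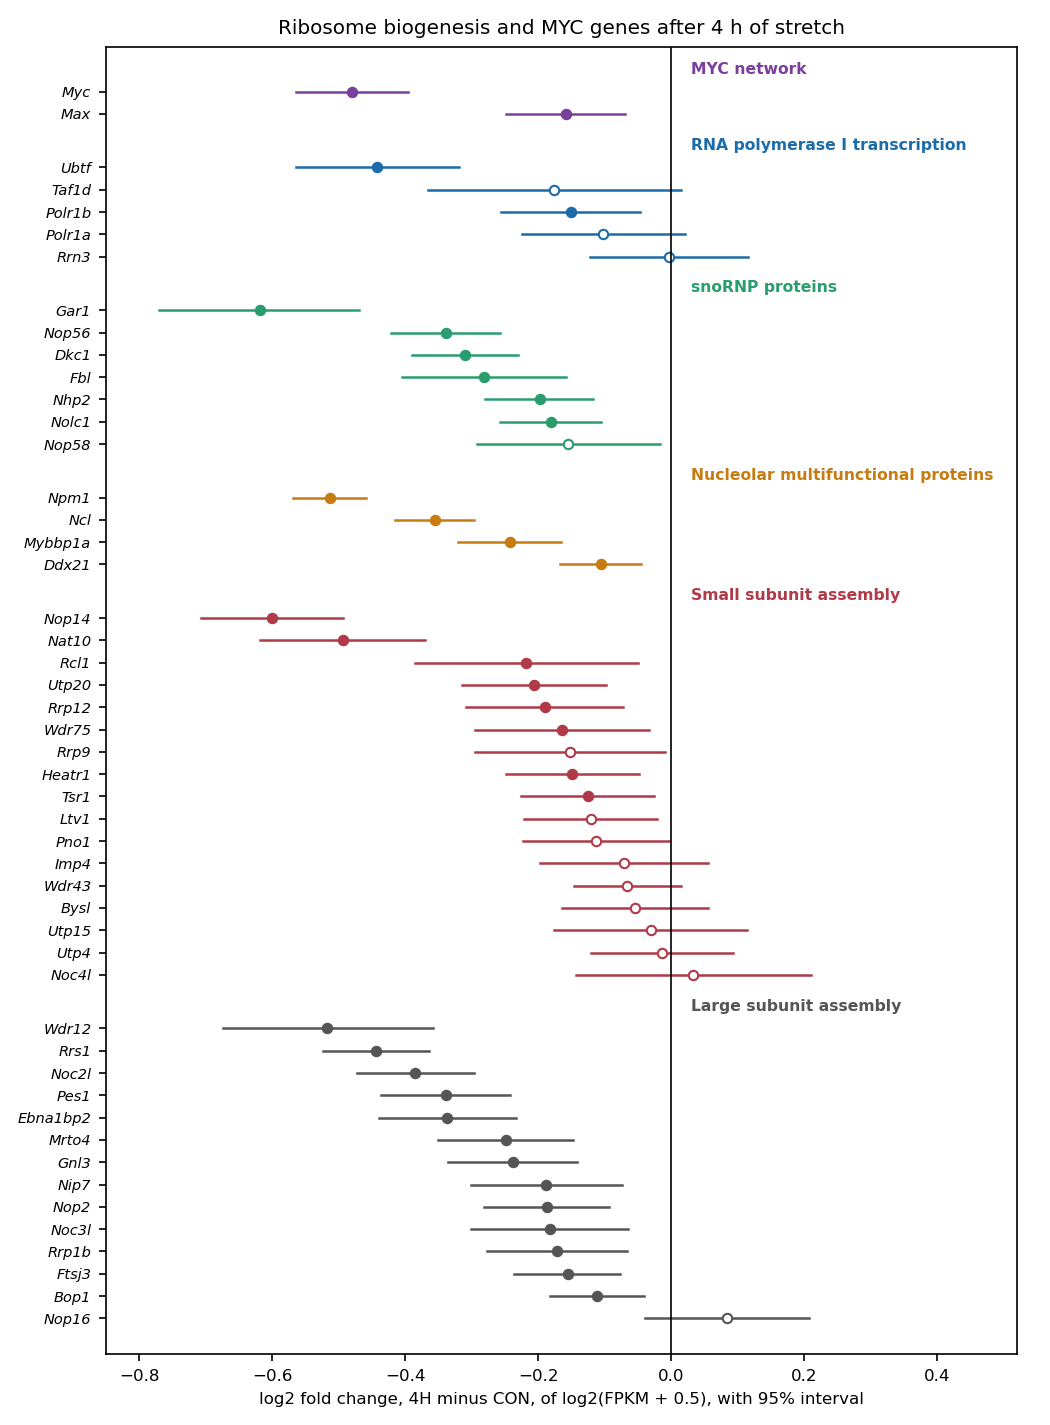
Log2 fold change of each gene (point) with its 95% interval from limma (line), grouped by step, where filled points passed an adjusted p of at most 0.05 and open points did not. All 35 filled points lie below 0, between -0.62 for Gar1 and -0.11 for Ddx21.

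The 6 libraries had FPKM sums between 395790 and 397260 in the CON group and between 385146 and 387516 in the 4H group, and the number of fragments behind them is not held by FPKM, so the depth is unknown. Of 6 myoblast markers, which check the label, 5 were above 1 FPKM in at least 1 library, and Myog, a marker of differentiating cells, was at most at 0.28 FPKM. Their sum was 121 FPKM in each CON library and between 160 and 168 FPKM in the 4H libraries. Myod1, Des, Cdh15 and Chrna1 were higher and Myf5 was lower after stretch. Of 12 markers of endothelial, leukocyte, epithelial and fat cells, Ptprc, Epcam and Plin1 were at 0 in all libraries and Cd68, a lysosomal protein, was the only one above 1 FPKM. All 12 summed to between 6.96 and 8.76 FPKM in the CON libraries and between 16.1 and 18.8 FPKM in the 4H libraries. The other 11 markers summed to between 0.218 and 0.251 FPKM in the CON libraries and between 1.12 and 1.29 FPKM in the 4H libraries. The part of these differences in the results below was not tested.

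Myc and Max were both lower after stretch. Myc (ENSMUSG00000022346, chr15:61985391-61990374 on GRCm38, plus strand) was at 68.6, 67.1 and 70.7 FPKM in CON and 47.8, 50.7 and 49.1 FPKM in 4H. The lowest CON library stood well above the highest 4H library, and the 4H mean was 71.5% of the CON mean. The log2 fold change was -0.48 (standard error, SE, 0.04, 95% interval -0.56 to -0.40, limma adjusted p = 2.03e-05). Max, the obligate partner of MYC, was at 31.7, 31.7 and 31.9 FPKM in CON and 29.5, 27.9 and 27.8 FPKM in 4H. The groups did not overlap here either, and the log2 fold change was -0.16 (SE 0.04, adjusted p = 0.0104). Mycn, the MYC paralog of embryonic and neural tissue, was listed at 0 in every library.

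Other members of the network around MAX were lower in expression than Myc, and most did not pass the test. Of 10 such genes, 8 were tested, 2 (25.0%) were lower, near the share of all genes tested, and 0 were higher. Mnt, a MAX partner that represses MYC target genes, averaged 9.70 ± 0.23 FPKM in CON and 6.62 ± 0.16 FPKM in 4H (SD, n = 3 libraries each), a log2 fold change of -0.52 (limma adjusted p = 0.000148). Mga, another MAX partner, had a log2 fold change of -0.18 (adjusted p = 0.0303). Its call was lost when any 1 library other than 4H replicate 1 was left out, with values from 0.0515 without CON replicate 3 to 0.0996 without CON replicate 1, and with TPM (0.0727). The repressors Mxd1, Mxi1, Mxd3 and Mxd4 did not pass, with log2 fold changes between -0.18 and 0.12. Mycl was below the filter and Mlxipl was at 0.

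Among 14 textbook MYC target genes outside ribosome assembly, 10 (71.4%) were lower and 2 were higher, and the median log2 change was -0.28. Of all genes averaging 5 FPKM or more, 28.5% were lower and 23.1% were higher. Ccnd2, a cyclin of early cell cycle entry, fell most, from 35.1 ± 1.11 to 17.9 ± 0.21 FPKM (SD, n = 3 each; log2 change -0.95, limma adjusted p = 8.98e-07). C1qbp, a mitochondrial matrix protein, fell from 150.3 ± 6.67 to 99.9 ± 2.16 FPKM (log2 change -0.59). Cdk4, Cad and Srm, which act in the cell cycle and in pyrimidine and polyamine synthesis, were at log2 fold changes of -0.43, -0.38 and -0.38. The 2 exceptions were Tfrc, the transferrin receptor, at 0.55, and Ldha, a glycolytic enzyme, at 0.36. Ccnd2 overlaps exons of 2 annotated genes on the other strand, and it passed a log2 fold change of 1 downward once the trend on GC content and length was removed.

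Transcription by RNA polymerase I was represented by 5 genes, of which 2 (40.0%) were lower, beside 28.5% of all genes averaging 5 FPKM or more. Ubtf, which encodes UBF, the factor that keeps rRNA genes open, was at 63.9, 57.4 and 66.3 FPKM in CON and 45.0, 46.5 and 46.1 FPKM in 4H. It was lower in every 4H library (log2 change -0.44, SE 0.05, limma adjusted p = 0.000275). Polr1b, the second largest subunit of the polymerase, was at 17.9 ± 0.43 and 16.1 ± 0.46 FPKM (SD, n = 3 each; log2 change -0.15, adjusted p = 0.0256). Its call was lost when any 1 library other than CON replicate 2 or 4H replicate 2 was left out, with values from 0.0507 without 4H replicate 1 to 0.0792 without 4H replicate 3, and with libraries rescaled to TPM (0.0702). Polr1a, the largest subunit, and Taf1d, a subunit of the promoter selectivity factor, did not pass (log2 fold changes -0.10 and -0.18, adjusted p = 0.153 and 0.116). Taf1d was at 56.6, 71.5 and 68.3 FPKM in 4H against 75.2, 76.5 and 69.6 FPKM in CON, with 4H replicate 1 well below the rest, and it passed without 4H replicate 2 (0.0474). Without 4H replicate 1 the log2 change of Taf1d was -0.076 (0.263). Polr1a passed once the trend on GC content and length was removed (log2 change -0.175, adjusted p = 0.0282). Rrn3, the factor that joins the polymerase to its promoter and carries growth signals, was at 31.5, 33.4 and 32.8 FPKM in CON and 34.1, 33.1 and 30.3 FPKM in 4H. The CON range lay within the 4H range, and the 95% interval of its log2 fold change ran from -0.12 to 0.12.

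Of 11 further genes of this step, 4 (36.4%) were lower and 0 were higher, where 24.1% of all genes tested and 28.5% of those averaging 5 FPKM or more were lower. Tcof1, the nucleolar protein treacle that binds UBF and the polymerase, had the largest fall of this step, from 57.7 ± 1.52 to 32.1 ± 1.04 FPKM (SD, n = 3 each; log2 change -0.84, limma adjusted p = 1.40e-06). Polr1f, a stalk subunit of the polymerase, fell from 12.2 ± 0.44 to 9.81 ± 0.41 FPKM (log2 change -0.31). The other 2 that fell were Polr1c and Taf1b, at -0.26 and -0.31.

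The snoRNP proteins were lower in 6 of 7 genes (85.7%), beside 28.5% of all genes averaging 5 FPKM or more, with a median log2 fold change of -0.28. Gar1, a core subunit of the H/ACA snoRNPs that carry out pseudouridylation, had the lowest log2 change of the 49 genes beside Nop14, and their order turned when CON replicate 1 was left out (Gar1 -0.556, Nop14 -0.591). Gar1 was at 33.9, 29.6 and 29.7 FPKM in CON and 19.7, 19.1 and 21.2 FPKM in 4H, so the 4H mean was 64.5% of the CON mean (log2 change -0.62, SE 0.07, limma adjusted p = 0.000129). Dkc1, the pseudouridine synthase of the same particle, was at 57.4, 56.0 and 58.5 FPKM against 47.2, 45.1 and 46.1 FPKM (log2 change -0.31, adjusted p = 0.000175). Nhp2, a further core subunit, had a log2 fold change of -0.20 (adjusted p = 0.00219). The difference between these 3 falls was not tested. The ratio of Gar1 to Nhp2, both in FPKM, was 0.53, 0.44 and 0.45 in the CON libraries and 0.35, 0.33 and 0.37 in the 4H libraries.

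Nop56, a scaffold of the C/D snoRNPs that carry out ribose methylation, was at 237.7, 225.5 and 241.4 FPKM in CON and 181.5, 191.8 and 183.4 FPKM in 4H (log2 change -0.34, SE 0.04, limma adjusted p = 0.000128). Fbl, the methyltransferase fibrillarin of the same particle, was at 82.1% of its CON mean (log2 change -0.28, adjusted p = 0.00308). Nop58, the scaffold that pairs with Nop56, did not pass (log2 change -0.15, adjusted p = 0.0651), although its groups did not overlap, and did without 4H replicate 2 (0.0371) and after correction for GC content and length (0.0249). Without 4H replicate 3 the log2 change of Nop58 was -0.084 (0.128). Nolc1, which binds both kinds of snoRNP, was at a log2 fold change of -0.18 (adjusted p = 0.00259). Of the 11 other snoRNP genes, 6 (54.5%) were lower, beside the background of 28.5%. In limma 0 were higher (1, Znhit6, at an unadjusted p under 0.05). The ATPases of snoRNP assembly led the falls, Ruvbl2 at -0.56 and Ruvbl1 at -0.38. In Ruvbl1, 40.5% of the 75-base stretches of its transcripts recur in a transcript of 1 other gene, and Ruvbl2 overlaps exons of 2 genes on the other strand.

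The abundant nucleolar proteins were lower in 4 of 4 genes, beside 28.5% of all genes averaging 5 FPKM or more. Npm1, nucleophosmin, the most abundant of the 49 genes per length, was at 667.3, 663.9 and 673.2 FPKM in CON and 459.9, 470.5 and 473.4 FPKM in 4H. The spread within a group was small beside the gap between the groups, and the log2 fold change was -0.51 (SE 0.02, limma adjusted p = 1.30e-06). Over 16 alternative fits the log2 change of Npm1 ran from -0.522 to -0.355, a wider range than its SE, and the call was kept in each. Ncl, nucleolin, was at 233.4, 232.0 and 237.3 FPKM against 182.4, 186.1 and 180.4 FPKM (log2 change -0.36, adjusted p = 1.52e-05). Mybbp1a, a repressor of rRNA transcription that binds MYB, was at 133.8, 130.4 and 139.7 FPKM against 114.6, 115.0 and 111.5 FPKM (log2 change -0.24, adjusted p = 0.000562). Ddx21, an RNA helicase, changed least, from 109.0 ± 1.12 to 101.3 ± 0.92 FPKM (SD, n = 3 each; log2 change -0.11, adjusted p = 0.0119). The call on Ddx21 was lost with libraries rescaled to TPM (0.0627), with quantile normalization (0.120) and without the variance trend (0.0599).

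**Figure D3:**
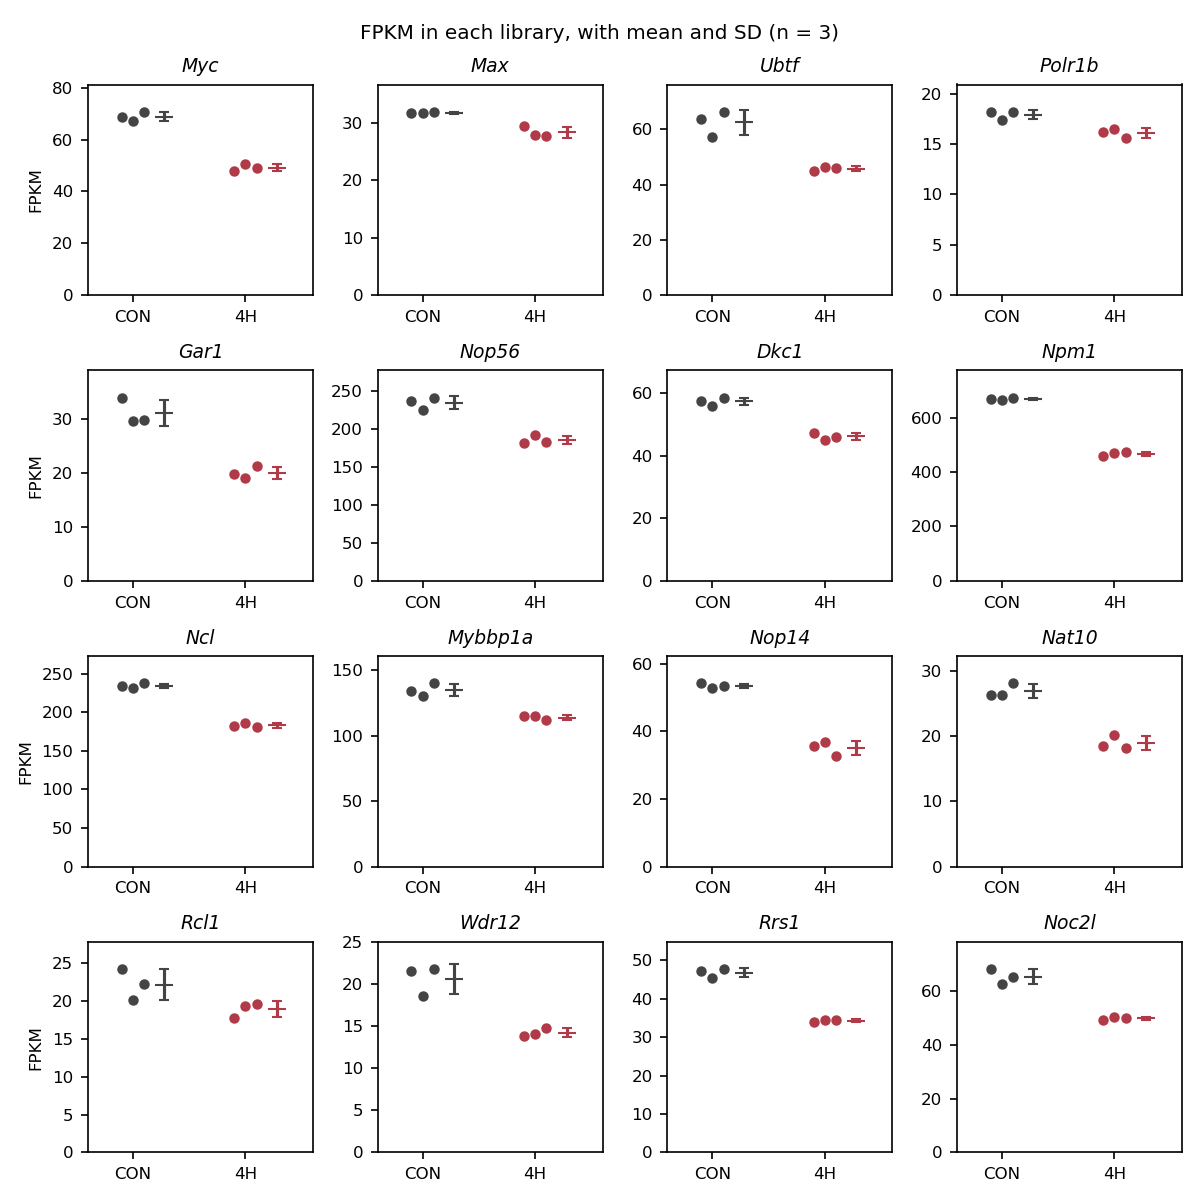
FPKM in each CON (grey) and 4H (red) library for 16 genes, with the group mean and SD beside the points and every axis starting at 0. The groups are apart in all 16 panels, widely in Npm1, Ncl, Rrs1 and Nop14 and narrowly in Rcl1.

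Small subunit assembly was mixed. Of its 17 genes, 8 (47.1%) were lower, 0 were higher and 9 did not pass, with a median log2 fold change of -0.13. Of all genes averaging 5 FPKM or more, 28.5% were lower and 23.1% were higher. Nop14, a scaffold of the early small-subunit particle, was at 54.1, 52.7 and 53.3 FPKM in CON and 35.6, 36.9 and 32.8 FPKM in 4H. Its 4H mean was 65.7% of the CON mean (log2 change -0.60, SE 0.05, limma adjusted p = 2.30e-05). Nat10, which acetylates small-subunit rRNA, was at 26.3, 26.3 and 28.1 FPKM against 18.5, 20.2 and 18.2 FPKM (log2 change -0.49, SE 0.05, adjusted p = 0.000153). Both genes were separated between the groups by more than the spread within either.

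The other 6 genes called lower in this step, Rcl1, Utp20, Rrp12, Wdr75, Heatr1 and Tsr1, had log2 fold changes between -0.22 and -0.13. Rcl1, a protein of early rRNA cleavage, was at 24.2, 20.1 and 22.2 FPKM in CON and 17.8, 19.4 and 19.7 FPKM in 4H (log2 change -0.22, limma adjusted p = 0.0388). Its adjusted p was above 0.05 when any 1 library except CON replicate 2 was left out, up to 0.117 without CON replicate 1, and also with no filter (0.0682), with TPM (0.0728) and without the variance trend (0.0672). Wdr75 and Tsr1 were as close to the threshold, at adjusted p values of 0.0445 and 0.0435, and were lost when any 1 library was left out, except CON replicate 1 for Wdr75 and CON replicate 2 for Tsr1, with values up to 0.119 and 0.135. Both were also lost with no filter, with TPM, median-of-ratios or quantile scaling and without the variance trend, with values from 0.0551 to 0.102 for Wdr75 and from 0.0593 to 0.123 for Tsr1. Heatr1 was lost without CON replicate 3 (0.0787) or 4H replicate 3 (0.0699) and with TPM (0.0629), and Rrp12 without CON replicate 1 (0.0528), CON replicate 3 (0.0558) or 4H replicate 3 (0.0532). Utp20, a large scaffold protein, kept its call in each of these settings.

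The remaining genes of this step did not pass. Noc4l, which binds Nop14 in the early particle, was at 30.4, 26.1 and 26.0 FPKM in CON and 26.4, 30.6 and 27.4 FPKM in 4H, with a log2 fold change of 0.03 and a 95% interval of -0.14 to 0.21. The ratio of Nop14 to Noc4l, both in FPKM, went from 1.95 ± 0.15 in the CON group to 1.25 ± 0.08 in the 4H group (SD, n = 3 each). The UTP-A proteins, which bind the growing rRNA first, were at log2 fold changes of -0.01 for Utp4, -0.03 for Utp15, -0.07 for Wdr43, -0.15 for Heatr1 and -0.16 for Wdr75, and 2 of the 5 passed. Imp4, Bysl, Rrp9, Pno1 and Ltv1 also did not pass, with log2 fold changes between -0.15 and -0.05. Of these, Rrp9 passed without CON replicate 2 (0.0311) and was at -0.089 without CON replicate 1 (0.212), Pno1 passed without 4H replicate 1 (0.0255), and Ltv1, at an adjusted p of 0.0511, passed when genes under 5 FPKM were left out (0.0469).

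Among 35 other genes of small subunit assembly, 16 (45.7%) were lower and 3 were higher, and the median log2 change was -0.14. The shares of all genes averaging 5 FPKM or more were 28.5% lower and 23.1% higher. Of the 3 that rose, Wdr36 rose most. Wdr36, a protein of the early small-subunit particle, was at 58.9, 55.3 and 56.4 FPKM in CON and 108.1, 112.3 and 116.9 FPKM in 4H (log2 change 0.98, SE 0.04, limma adjusted p = 7.32e-07). It overlaps exons of 1 annotated gene on the other strand, and it passed a log2 fold change of 1 with TPM, with quantile normalization and without CON replicate 1 or 4H replicate 1. Dcaf13 and Ddx47 were the other 2 that rose, at 0.21 and 0.19. Imp3, a partner of Imp4, had the largest fall of these genes, from 20.0 ± 1.00 to 13.9 ± 0.60 FPKM (SD, n = 3 each; log2 change -0.51, adjusted p = 0.000154), while Imp4 itself was at -0.07 (adjusted p = 0.323).

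Large subunit assembly was lower in 13 of 14 genes (92.9%), beside 28.5% of all genes averaging 5 FPKM or more, with a median log2 fold change of -0.21. Wdr12, a subunit of the PeBoW complex that processes large-subunit rRNA, was at 21.6, 18.6 and 21.8 FPKM in CON and 13.9, 14.1 and 14.8 FPKM in 4H (log2 change -0.52, SE 0.07, limma adjusted p = 0.000451). Pes1 and Bop1, the other subunits of PeBoW, were at log2 fold changes of -0.34 and -0.11 (adjusted p = 0.000325 and 0.0174). The ratio of Wdr12 to Bop1, both in FPKM, was 0.32, 0.27 and 0.32 in the CON libraries and 0.22, 0.22 and 0.24 in the 4H libraries. All 3 subunits were lower, the difference between their falls was not tested, and Bop1 lost its call without CON replicate 2 (0.0557), 4H replicate 1 (0.0503) or 4H replicate 3 (0.0511), with libraries rescaled to TPM (0.0758), with quantile normalization (0.0891) and without the variance trend (0.0591).

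Rrs1, which brings the 5S ribonucleoprotein into the large subunit, was at 47.2, 45.5 and 47.7 FPKM in CON and 33.8, 34.4 and 34.6 FPKM in 4H (log2 change -0.44, SE 0.03, limma adjusted p = 2.38e-05). Noc2l, a nucleolar transport and assembly factor, was at 68.2, 62.7 and 65.2 FPKM against 49.2, 50.3 and 50.2 FPKM (log2 change -0.39, adjusted p = 9.11e-05). Ebna1bp2, an early assembly factor, Mrto4, a placeholder for a stalk protein, and the nucleolar GTPase Gnl3 were at log2 fold changes of -0.34, -0.25 and -0.24. Nip7, Nop2, Noc3l, Rrp1b and Ftsj3 were lower by less, between -0.19 and -0.16 on the log2 scale. Of these 5, Noc3l was lost without CON replicate 1 (0.0581), 4H replicate 2 (0.0606) or 4H replicate 3 (0.0605) and with TPM (0.0506), and Rrp1b without CON replicate 3 (0.0523) or 4H replicate 3 (0.0509).

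Nop16, a nucleolar protein of the large subunit, was the gene of this step that did not pass. It was at 35.9, 33.6 and 38.9 FPKM in CON and 37.9, 38.9 and 38.0 FPKM in 4H, and its groups overlapped (log2 change 0.08, 95% interval -0.04 to 0.21, limma adjusted p = 0.238). Without CON replicate 3 it was called higher (log2 change 0.14, adjusted p = 0.0498), and without CON replicate 2 it was at 0.03 (0.608).

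Of 42 other genes of large subunit assembly, 14 (33.3%) were lower and 2 were higher, and the median log2 change was -0.08. The share lower was near the 28.5% of all genes averaging 5 FPKM or more. Nle1, which acts with the remodelling ATPase of the late particle, fell from 20.3 ± 1.33 to 15.2 ± 0.59 FPKM (SD, n = 3 each; log2 change -0.41, limma adjusted p = 0.000694), and Nop53 from 25.3 ± 0.83 to 19.5 ± 0.80 FPKM (log2 change -0.37, adjusted p = 0.000387). Las1l, an endonuclease of the internal spacer, and Eif6, which keeps the subunits apart until the large one is mature, were higher, at 0.26 and 0.12. Nle1 overlaps exons of 1 gene on the other strand. Of 15 genes of the exosome and other rRNA nucleases, 14 were tested, 4 (28.6%) were lower and 0 were higher, a share lower near that same background. The 2 largest falls were those of Exosc4 at -0.42 and Exosc7 at -0.28. Exosc6 was below the filter, and all of its annotated transcript is shared with 1 overlapping gene on the same strand, Aars.

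**Figure D4:**
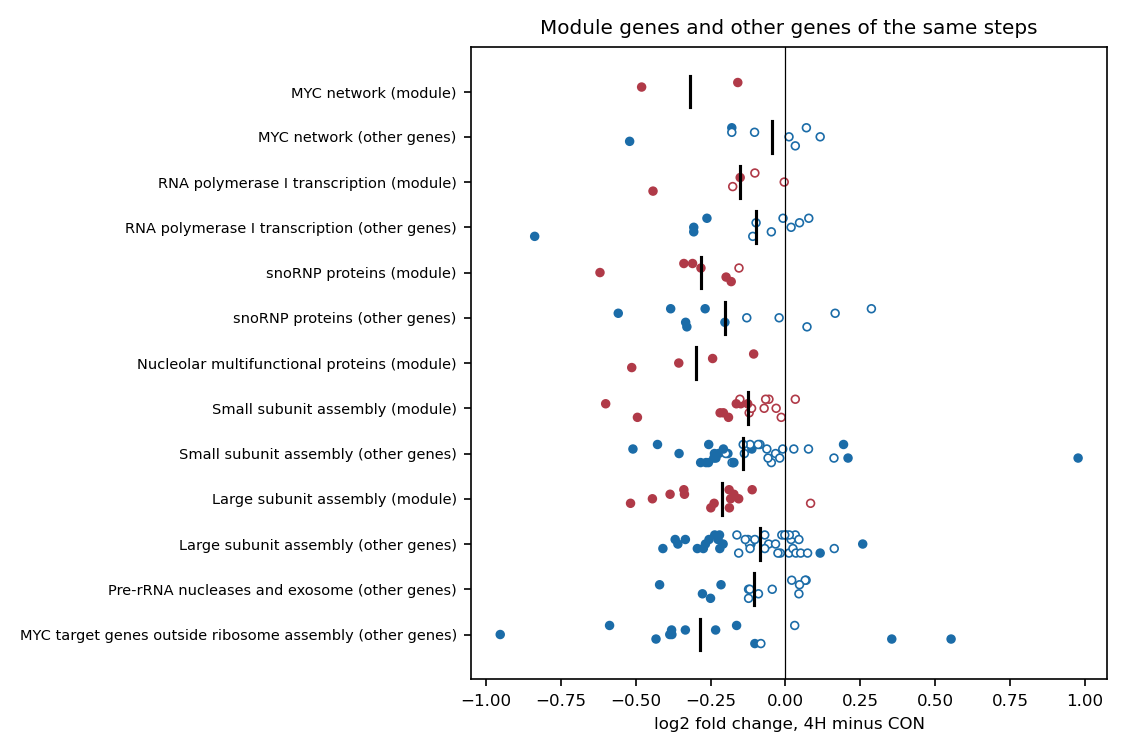
Log2 fold changes of the 49 tested genes (red) and of 135 other tested genes of the pathway (blue) by step, where filled points passed an adjusted p of at most 0.05 and the black bar marks the median of a row. The medians of the red rows lie between -0.32 and -0.13, and Wdr36 at 0.98 and Ccnd2 at -0.95 mark the ends of the range.

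Over all 135 tested genes of the wider pathway and of the MYC lists, 56 (41.5%) were lower, 7 were higher and 72 did not pass, beside 24.1% lower and 22.6% higher among all genes tested and 28.5% and 23.1% among those averaging 5 FPKM or more, and the median log2 fold change was -0.12. The study's thresholds were reached by 0 of them in limma. The genes in that wider set had a lower median CON level, 27.5 FPKM against 46.8 FPKM for the 49 genes.

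**Figure D5:**
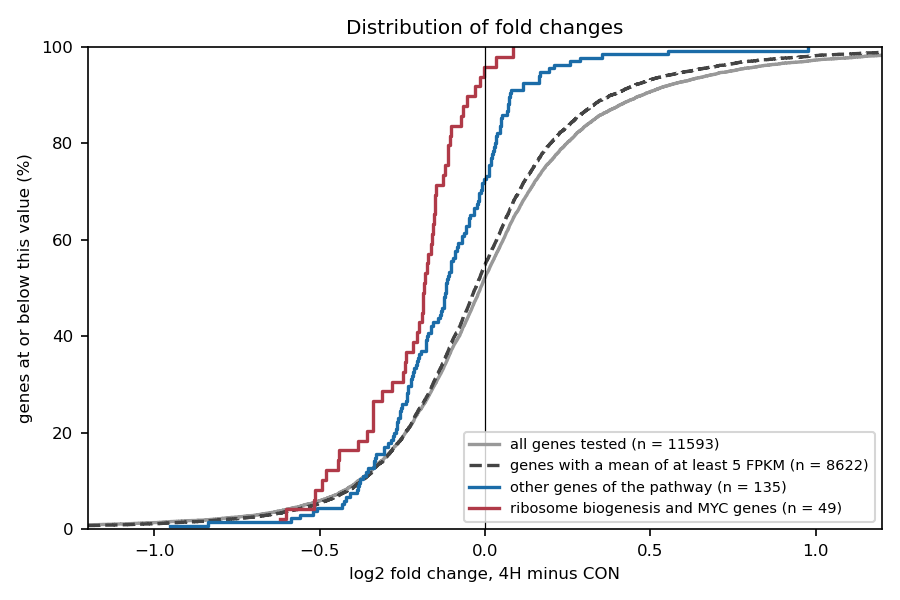
Cumulative share of genes by log2 fold change for all 11593 genes tested (grey line), the 8622 genes averaging 5 FPKM or more (dashed), 135 other pathway genes (blue) and the 49 ribosome biogenesis and MYC genes (red). The red curve stands left of the others from about -0.5 upward, with all of its genes between -0.62 and 0.08.

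The levels of the 49 genes per length spread widely. In the CON group they ran from 14.6 FPKM for Utp15 to 668.1 FPKM for Npm1, with a median of 46.8 FPKM. Nop56 (234.8 ± 8.32 FPKM) and Ncl (234.2 ± 2.74 FPKM) followed Npm1 and did not differ from each other beyond their spread (SD, n = 3 libraries each). Mybbp1a and Ddx21 came next, at 134.6 ± 4.70 and 109.0 ± 1.12 FPKM. Across the 49 genes, which share the same libraries, level and log2 fold change had a Spearman correlation of -0.34, so the more abundant genes tended to have the lower fold changes.

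Within the span and on the strand of 8 of the 50 genes lie snoRNA genes of GENCODE M21, 29 in all. These hosts are Dkc1, Gnl3, Ncl, Nop56, Nop58, Taf1d, Tsr1 and Wdr43. Of these 8 hosts, 5 were lower and 3 did not pass, with a median log2 fold change of -0.21. Of the other 41 tested genes 30 were lower, with a median of -0.18. Among all genes averaging 5 FPKM or more 28.5% were lower. The difference between hosts and other genes was not tested. The snoRNAs themselves are not polyadenylated and were not analysed here.

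Some values could include reads of other genes. At least 10% of the 75-base stretches recur in transcripts of another gene for Npm1 (18.1%), Fbl (17.0%), Nop56 (14.4%) and Pes1 (10.4%). In 20 of the 50 genes an exon overlaps an exon on the other strand, among them Nop14, Nop56, Dkc1, Wdr12, Noc2l, Pes1 and Mybbp1a. The libraries were strand-specific, but whether counting used the strand is not given in the sources used here. The 27 tested genes with neither feature had the same median log2 fold change as the whole set, -0.18. Of these, 20 (74.1%) were lower and 0 were higher, beside 28.5% and 23.1% of all genes averaging 5 FPKM or more.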

How the data were processed

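RNA-seq of C2C12 cells was analysed from 3 CON and 3 4H libraries, grouped by their labels. Per the labels, poly(A)-selected RNA was sequenced in strand-specific, paired-end mode. The values are FPKM, computed by the authors and deposited as 1 table. The build in the submitters' processing notes is mm10. Which aligner, counting tool and gene models they used is not given in the sources used here. Depth cannot be read from FPKM, so precision rests on the spread of 3 libraries per group.

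Genes averaging 0.5 FPKM or more were fitted in limma 3.58.1 (R 4.3.3; lmFit, eBayes with trend) on log2(FPKM + 0.5), a scale that understates changes of low genes. The test was two-sided, without a block, with Benjamini-Hochberg adjustment over all 11593 genes. The study used DESeq2, which takes counts and was not run. The fit was tested on simulated data. Shared sequence, exon overlap and snoRNA genes came from GENCODE M21 and promoters from RefSeq. Plots were made with matplotlib 3.10.9.

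The genes, lists and tests were chosen with earlier results of these data known. Named in full are Myc, Mycn and Max, the 3 largest changes among called genes of each step, and the 2 largest of each list of other genes. Other genes were named after their values were seen, as were the ratios between subunits. Alternatives were pseudocounts of 0.1 and 1, no filter and a filter at 5 FPKM, TPM, median-of-ratios and quantile scaling, no trend, a replicate block and each library left out, and, added after the data were seen, removal of the trend on GC content and length (known for 98.6% of genes tested) and leaving out genes with shared or overlapping sequence.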

Additional observations from a re-analysis of the deposited data

How the results depend on the processing

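Over 16 alternative fits the median log2 fold change of the 49 genes stayed between -0.21 and -0.15, while that of all genes tested lay between -0.03 and 0.03. Between 26 (without 4H replicate 3) and 37 (GC content and length trend removed) of the 49 were lower, and 27 with TPM. Of the 35 genes called lower, 25 kept the call in all 16 fits, 10 lost it in at least 1, and 7 uncalled genes gained one. With 1 library left out, 26 to 34 of the 49 were lower and 0 to 1 higher. Of the other pathway genes, 1 passed the study's thresholds with TPM, quantile normalization or the GC and length trend removed, and 0 to 1 with 1 library left out. Over all genes tested, 245 passed these thresholds with a filter at 5 FPKM and 703 with TPM, against 450. Whether the replicate numbers pair the libraries is not given in the sources used here. Deviations of same-numbered libraries from their group means had correlations of 0.025, -0.093 and -0.126. Such deviations sum to 0 within each group, so these values cannot settle the pairing. By the library titles, C3 would match 4H3 (4H replicate 2), a pair with a correlation of 0.176, and C2 and 4H4 would have no match. A block on titles was not run. With the replicate block 30 of the 49 genes were lower, and the adjusted p rose above 0.05 for Polr1b (0.06), Wdr75 (0.0591), Heatr1 (0.0558), Rcl1 (0.0713), Tsr1 (0.0851) and, outside the set, Mga (0.053). FPKM limits these results, since it holds no depth.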

Other observations

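RNA polymerase III, which makes the transfer RNAs and the 5S rRNA, was examined as a list chosen after the other results were seen. Of its 22 subunits and factors tested, 5 were lower, 4 were higher and 13 did not pass, with a median log2 fold change of -0.06, where 24.1% of all genes tested were lower and 22.6% higher (limma with Benjamini-Hochberg adjustment). Maf1, a repressor of this polymerase, fell from 43.7 ± 0.66 to 36.0 ± 1.85 FPKM (SD, n = 3 libraries each; log2 change -0.28, adjusted p = 0.00112). The alternative subunits Polr3g and Polr3gl differed in direction. Polr3g averaged 5.60 ± 0.29 FPKM in CON and 6.99 ± 0.32 FPKM in 4H (log2 change 0.30, adjusted p = 0.00864), and Polr3gl averaged 5.44 ± 0.21 and 4.03 ± 0.79 FPKM (log2 change -0.41, adjusted p = 0.0238). The difference between these 2 subunits was not tested. Polr3k and Gtf3c6 were also higher, at 0.34 and 0.26.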
